A study of Mus musculus with 8 samples.

Results

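Collagens and the other genes of the extracellular matrix were followed in gastrocnemius muscle, a mixed hindlimb muscle, of mice lacking either catalytic subunit of AMP-activated protein kinase (AMPK) and of wild-type (WT) mice. The genes were taken from the deposited table as protein coding genes whose symbol begins like that of a collagen chain, together with 24 listed collagen and matrix genes. This gave 50 genes of 12311 protein coding genes, with 325 of the 56483 polyadenylation adjacent sites (APSs, the positions at which the 3′ ends of transcripts were read). Of the 50, 36 are collagen chains, 13 are listed matrix genes that are no collagens, and 1 (Col4a3bp, which encodes a ceramide transfer protein) shares the letters of the pattern but is not a collagen chain. All 24 listed genes were found.

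There were 4 groups of 2 mice, 1 library per mouse: AMPKα1 KO, AMPKα1 WT, AMPKα2 KO and AMPKα2 WT. In each KO line the DNA coding for part of the catalytic domain of the subunit had been deleted. The study's methods put the age of AMPKα1 KO mice near 6 weeks with a 129S2/SvPas background, and that of AMPKα2 KO mice near 8 weeks with a C57BL/6 background, and say that the mice were male. The sample labels give C57BL/6 and adult for all 8 mice, and an age of the WT mice is not given in the sources used here, so the strain of the AMPKα1 mice is uncertain. The deleted part lies away from the 3′ end that this assay reads, so reads of the targeted genes check nothing: Prkaa1 had 0 and 82 reads in AMPKα1 KO and 15 and 0 in AMPKα1 WT, and Prkaa2 had 40 and 71 in AMPKα2 KO and 87 and 62 in AMPKα2 WT. The labels number the mice within each group, and p-values measure the spread between these single libraries.

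Collagen chains wind into triple helices. Collagens I, III and V build the fibrils that carry tension in tendon and in the sheaths around muscle, collagen IV forms the network of the basement membrane around each fibre, and collagen VI forms beaded filaments that tie that membrane to the fibrils. Small leucine-rich proteoglycans such as decorin coat the fibrils and set their spacing, SPARC is a collagen-binding glycoprotein, and lysyl oxidase cross-links the finished fibres. Most of these transcripts in muscle come from fibroblasts and tendon cells rather than from the fibres.

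Each library was made with whole transcriptome termini site sequencing (WTTS-seq), in which a read marks 1 transcript end, so that values were not divided by transcript length. The 30 transcribed bases at or next to the main sites of the genes that the results turn on are given below, with the AATAAA or ATTAAA signal nearest the site in capitals where there is one (GENCODE transcripts on GRCm38, read 5′ to 3′ on the strand of the gene). They are shown because several of these genes end at a pair of sites whose shares differed between the mouse models, and because the collagen VI chains were also read inside exons far from the end.
Col1a1, proximal site, last exon, chr11:94951822-94951851, plus strand: aaaccaaaagtgcattcaaccttaccaaaa
Col1a1, distal site, chr11:94953013-94953042, plus strand: gctggAATAAAgcatgtggaaatgacccaa
Col1a2, proximal site, last exon, chr6:4540949-4540978, plus strand: ttgtaagaaaacccaAATAAAaattgaaaa
Col1a2, distal site, last exon, chr6:4541500-4541529, plus strand: aataaAATAAAgcatttttggttttccaaa
Sparc, proximal site, last exon, chr11:55395436-55395465, minus strand: tagatttaactgaatacattaacggtgcta
Sparc, distal site, chr11:55394500-55394529, minus strand: caaAATAAAaagtaacaacttagaaacggc
Timp2, proximal site, last exon, chr11:118303590-118303619, minus strand: aaacagcatgAATAAAacatcaatcatcca
Timp2, distal site, chr11:118301069-118301098, minus strand: ctctgtcaatggacAATAAAccatattatc
Col4a1, distal site, last exon, chr8:11198523-11198552, minus strand: attcaaatttgtAATAAAactatttgtata
Dcn, main site, last exon, chr10:97517706-97517735, plus strand: atatcattgctaaaaagaaaaaatactaaa
Col6a1, site in the last exon, chr10:76708792-76708821, minus strand: tatctctgctAATAAAggtttccatttttc
Col6a2, site in an internal exon, chr10:76609531-76609560, minus strand: gcaggggaccaccaggagatcctggagaca
Col6a3, site in an internal exon, chr1:90785895-90785924, minus strand: atggggttggcagtgaaggacgcagaggca
The main site of Dcn, the proximal sites of Col1a1 and Sparc and both internal exon sites hold neither signal in these windows. Of 46 such windows read for the named sites, 33 held a signal, 25 of them AATAAA and 8 ATTAAA.

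The libraries held between 2311242 and 3549156 counted reads, and 3 reads, taken as the floor, correspond to between 0.845 and 1.30 CPM (reads scaled to the library total). The AMPKα1 and AMPKα2 libraries differed in makeup over all genes. A single site at the ribosomal RNA gene Rn18s-rs5 took 11.6% to 17.0% of each AMPKα2 library, and the largest site of each AMPKα1 library took between 2.50% and 4.56%. The spread between libraries of a group (biological coefficient of variation over all genes) was 104% for AMPKα1 and 26.2% for AMPKα2. In the AMPKα1 KO group, 11.9% of the genes with at least 50 reads in 1 library had none in the other, against 1.51% in AMPKα1 WT and at most 0.0734% in either AMPKα2 group. Among the collagen and matrix genes these were Col5a3, Col6a6 and Postn, 3 of the 34 with that many reads in AMPKα1 KO, and there were none in the other 3 groups. Fibre markers (Acta1, Ckm, Myh4, Mylpf and Tnnt3) had 44846 to 106360 CPM in the AMPKα1 libraries on the scale of edgeR's TMM factors, with none of the 5 at 0.

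Collagen I, decorin and SPARC supplied most of the reads of these genes in every library. Together the 50 genes took 1.42% and 1.59% of all reads in AMPKα1 KO and 1.38% and 2.07% in AMPKα1 WT. In the AMPKα2 model they took 0.395% and 0.374% in KO and 0.309% and 0.340% in WT. The AMPKα1 values lie above all AMPKα2 values, and within each model KO and WT overlap in AMPKα1 and do not overlap in AMPKα2. The 95% Wilson intervals of these shares are at most 0.0301 percentage points wide. These and all intervals below cover counting error only, because PCR copies cannot be told from separate transcripts.

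Col1a1, the α1 chain of collagen I (chromosome 11, 94936224 to 94953042, plus strand), was the gene with the most reads in both models on average. Its CPM by library total was 7281 and 8053 in AMPKα1 KO and 4912 and 10406 in AMPKα1 WT. It was 915 and 620 in AMPKα2 KO and 433 and 657 in AMPKα2 WT, below every AMPKα1 library. Dcn (decorin) had 1983 ± 137 CPM (SD, n = 4) in the AMPKα1 and 540 ± 59.1 (n = 4) in the AMPKα2 libraries, Col1a2 2024 ± 719 and 528 ± 76.9, and Sparc 1175 ± 637 and 479 ± 63.7. Dcn and Col1a2 thus lie within each other's spread in both models. Col3a1, the chain of collagen III, followed with 597 ± 196 and 211 ± 29.2, and Fmod (fibromodulin, a fibril-binding proteoglycan) with 267 ± 96.8 and 260 ± 82.4. At the low end of the listed genes, Lum (lumican, a fibril-binding proteoglycan) had 8 reads and Mmp2 (a gelatinase) 10 reads in AMPKα1 KO 1, near the floor.

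**Figure D1:**
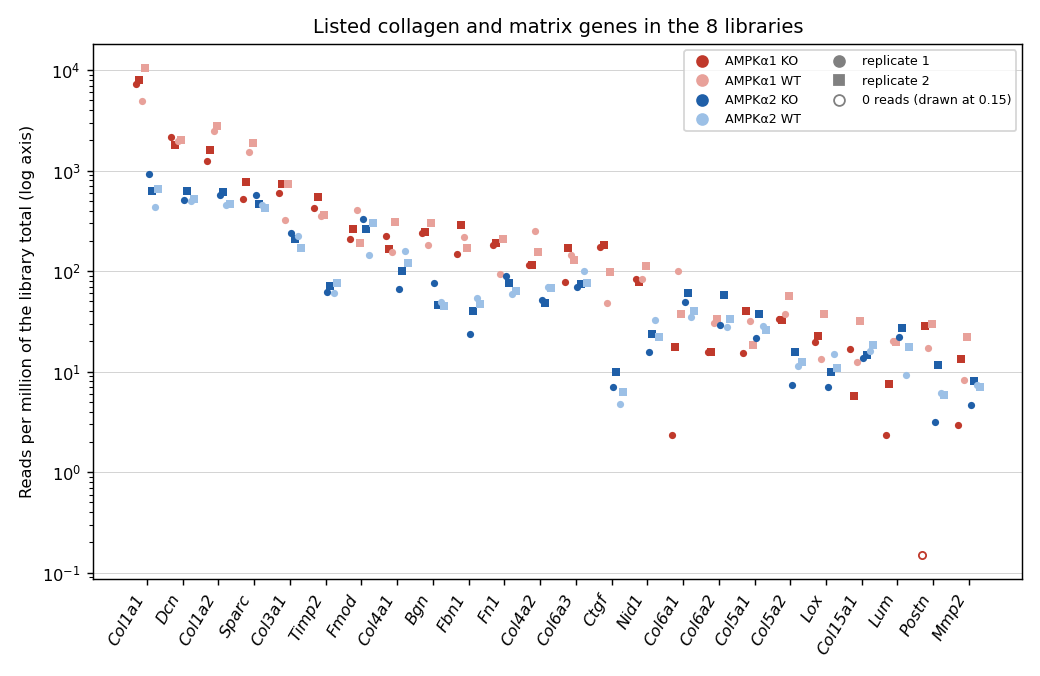
CPM by library total (log axis) of the 24 listed genes in each of the 8 libraries, 1 point per library and 4 groups of 2. Col1a1, between 433 and 10406, is highest on average over the 4 libraries of each model, Dcn is above it in AMPKα2 KO 2 and AMPKα2 WT 1, and the library with 0 Postn reads (AMPKα1 KO 1) is drawn at the foot of the axis.

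The makeup of the matrix reads differed as well. Col1a1 alone took 51.4% and 50.6% of the reads of the 50 genes in AMPKα1 KO and 35.7% and 50.2% in AMPKα1 WT. In the AMPKα2 model it took 23.2% and 16.6% in KO and 14.0% and 19.3% in WT, with Wilson intervals between 0.735 and 1.66 points wide. The 4 collagen VI genes went the other way, with 0.822% and 1.27%, 2.02% and 1.04%, 6.67% and 7.66%, and 6.39% and 6.19% in the same order. In AMPKα2 introns held 72.6% of the Col6a1 and 98.9% of the Col6a6 reads. Internal exons held 75.2% of the Col6a2 and 59.9% of the Col6a3 reads there. Most AMPKα1 reads of each of these genes lay at its end, and shares at the gene ends alone were not compared. Small leucine-rich proteoglycans took 12.2% to 18.6% in AMPKα1 libraries and 22.9% to 26.2% in AMPKα2 libraries. None of these shares separated KO from WT in both models.

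The first comparison asked which matrix genes differ between AMPKα1 KO and WT muscle. No collagen or matrix gene passed the test (edgeR's quasi-likelihood test with Benjamini-Hochberg adjustment over 13941 genes), where 0.0% of all genes tested passed. The smallest adjusted p among the 49 tested was 0.763. At an unadjusted p under 0.05 stood 4 of the 49, Sparc, Col1a2, Col6a1 and Col20a1, all lower in KO, where 4.21% of all genes tested did so in either direction and 2.84% as lower in KO. The log2 fold change was positive for 15 of 49, with a median of -0.45, against 48.9% and a median of -0.03 over all genes tested. With library totals as the scale in place of TMM factors, 23 of 49 were positive with a median of -0.24, where the median of all genes moved to 0.22. Without AMPKα1 KO 2 the median of these genes was -0.69, with 12 of 47 positive. In whole muscle, fewer matrix-producing cells and less RNA per cell cannot be told apart.

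Sparc had the lowest p. Its CPM, from here on scaled with TMM factors, was 512 and 694 in AMPKα1 KO and 1927 and 1875 in AMPKα1 WT. The groups do not overlap, and the log2 fold change was -1.66 (SE 0.35, n = 2 per group, edgeR adjusted p = 0.763). DESeq2 called this gene alone among the 50, at an adjusted p of 0.0101. Over all genes DESeq2 called 29 higher and 95 lower.

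Col1a2, the α2 chain of collagen I, had 1209 and 1462 CPM in AMPKα1 KO and 3114 and 2764 in WT, again with no overlap. Its log2 fold change was -1.14 (SE 0.33, edgeR adjusted p = 0.763). The partner chain did not share this: Col1a1 had 7109 and 7297 CPM in KO and 6200 and 10355 in WT, with the KO libraries inside the range of the WT libraries. The log2 fold change of Col1a1 was -0.20 (SE 0.35, edgeR adjusted p = 0.999), it was 0.01 by library totals, and with 1 library left out at a time it ran from -0.52 to 0.25. The other fibrillar chains were Col3a1 at 0.15 (SE 0.42), Col5a1 at -0.18 (SE 0.84) and Col5a2 at -0.74 (SE 0.58). Of the 10 fibrillar collagens, 2 were positive and the median was -0.47.

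None of the 4 collagen VI genes passed in AMPKα1, and 2 of them lay below WT without overlap. Col6a1 had 2.28 and 16.0 CPM in KO and 126 and 37.1 in WT, a log2 fold change of -3.15 (SE 1.11, edgeR adjusted p = 0.763). Col6a2 had 15.4 and 14.1 in KO and 38.8 and 33.1 in WT (-1.28, SE 0.76), and for both genes the KO libraries lay below both WT libraries. Col6a3, the longest chain, had 76.6 and 152 in KO and 181 and 129 in WT, so the groups overlap. They also overlap for Col6a6, with 19.4 and 0 in KO and 5.46 and 15.4 in WT (-0.11, SE 2.25).

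Among genes of the basement membrane, 1 of 8 was positive and the median was -0.63. Col4a2 (a chain of the collagen IV network) had 112 and 104 CPM in AMPKα1 KO against 320 and 153 in WT (log2 fold change -1.12, SE 0.50). Nid1 (nidogen, which links collagen IV to laminin) had 81.1 and 70.2 in KO and 107 and 112 in WT (-0.53, SE 0.45). Both lay lower in KO without overlap, while Col4a1 with 219 and 150 against 196 and 306 did not separate.

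All 4 small leucine-rich proteoglycans had a negative log2 fold change, with a median of -0.46. Lum had 2.28 and 6.91 CPM in AMPKα1 KO and 25.7 and 19.4 in WT (-2.28, SE 1.31). Dcn had 2095 and 1647 in KO and 2463 and 2007 in WT (-0.26, SE 0.34), and by library totals 0.01. For Bgn (biglycan) the value of -0.21 (SE 0.39) turned to 0.02 by library totals. Fmod had 205 and 236 in KO against 512 and 190 in WT, and left-out libraries moved its log2 fold change of -0.67 between -1.18 and 0.21, so the sign rests on the library AMPKα1 WT 1.

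A few matrix genes lay above WT. Ctgf (connective tissue growth factor, a secreted matrix protein induced by TGF-β and by stretch) had 169 and 165 CPM in AMPKα1 KO and 61.2 and 97.4 in WT, a log2 fold change of 1.07 (SE 0.46, edgeR adjusted p = 0.763). The fibril-associated collagens Col14a1 and Col22a1, the latter found at the junction of muscle and tendon, were the only others with both KO libraries above both WT libraries. Col14a1 had 25.0 and 51.1 against 3.82 and 24.6 CPM, and Col22a1 70.9 and 33.7 against 16.9 and 24.4. Introns held 235 of 365 Col14a1 and 418 of 486 Col22a1 reads in the AMPKα1 libraries, so these values rest mostly on intronic sites. In all 3 of the 49 genes lay above WT without overlap, as 13.6% of all genes tested did, and 15 lay below, as 18.9% of all did.

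The remaining glycoproteins and enzymes stayed within their spread. Fn1 (fibronectin) was at 0.09 (SE 0.45), Fbn1 (fibrillin, the scaffold of microfibrils) at -0.12 (SE 0.49), Timp2 (an inhibitor of matrix metalloproteinases) at 0.16 (SE 0.37) and Lox (lysyl oxidase) at -0.46 (SE 0.84). Postn (periostin) had 0 and 25.7 CPM in KO and 21.8 and 29.6 in WT, and the wide SE of its log2 fold change, 1.88, goes with the library without a read. For genes read in no AMPKα1 KO library a fold is only a bound against the floor of 3 reads per library: Col20a1 had 23 and 36 reads in WT and was at least 13.7-fold lower in KO, and Col4a4 had 17 and 19 reads in WT and was at least 8.79-fold lower. All Col20a1 reads lay at a pair of intronic sites.

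The same comparison in the AMPKα2 model gave smaller differences with smaller errors, mostly of the other sign. None of the 39 genes tested passed, with a smallest adjusted p of 0.410, where 0.682% of all 10552 genes tested did, and DESeq2 called none of them either. At an unadjusted p under 0.05 stood 6 of 39, where 8.55% of all genes tested did: Col6a6, Lum, Col6a1, Col23a1 and Col6a2 were higher in KO and Col4a1 was lower. Of the 127 Col23a1 reads in the AMPKα2 libraries, 85 lay in introns, 31 antisense to the gene and 11 in the last exon. The log2 fold change was positive for 26 of 39 with a median of 0.34, against a median of -0.01 over all genes tested. By library totals 23 of 39 were positive with a median of 0.13, where the median of all genes moved to -0.19. Without AMPKα2 KO 1 the median of these genes was 0.08, with 21 of 36 positive and, at an unadjusted p under 0.05, 1 higher and 2 lower. Without AMPKα2 WT 1 it was 0.21, with 23 of 36 positive. Both KO libraries lay above both WT libraries for 13 of 39, as for 18.8% of all genes tested, and below for 7, as for 20.5%.

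The collagen VI family led this list. Col6a6, a chain that can replace the third chain of collagen VI, had 187 and 96.7 CPM in AMPKα2 KO and 36.1 and 74.4 in WT, a log2 fold change of 1.37 (SE 0.44, n = 2 per group, edgeR adjusted p = 0.410). Col6a1 had 80.1 and 61.8 in KO and 36.4 and 48.3 in WT (0.75, SE 0.28, edgeR adjusted p = 0.454), and Col6a2 47.7 and 59.4 in KO and 28.7 and 40.3 in WT (0.65, SE 0.29, edgeR adjusted p = 0.570). All 3 lay above WT without overlap, whereas Col6a3 with a log2 fold change of -0.08 (SE 0.26) did not separate. Nearly all Col6a6 reads in these libraries came from 1 intronic site, described further on.

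All 4 proteoglycans had a positive log2 fold change in AMPKα2 KO, with a median of 0.66. Lum had 35.6 and 28.1 CPM in KO and 9.67 and 21.3 in WT (1.07, SE 0.39, edgeR adjusted p = 0.439). Dcn had 822 and 645 in KO and 524 and 636 in WT (0.34, SE 0.26), a narrow separation. With every gene that had a read tested in place of those with 16, edgeR called Lum (adjusted p = 0.0816) and Col6a6 (adjusted p = 0.000158). That setting called 260 of all 14598 genes higher and 137 lower.

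For collagen I, Col1a2 had 935 and 626 CPM in AMPKα2 KO and 473 and 573 in WT (0.58, SE 0.28, edgeR adjusted p = 0.615). Col1a1 had 1485 and 636 in KO and 450 and 800 in WT (0.76, SE 0.45, edgeR adjusted p = 0.695), so that only Col1a2 separated. Sparc had 926 and 483 in KO and 471 and 515 in WT, and its log2 fold change of 0.51 (SE 0.32) became -0.03 without AMPKα2 KO 1. That library was also the highest for Col1a1, Col1a2, Col3a1, Bgn, Fn1 and Fmod. Of the 8 fibrillar collagens tested, 6 were positive, with a median of 0.36.

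Basement membrane genes leaned downward in AMPKα2 KO, with 1 of 5 positive and a median of -0.22. Col4a1 had 108 and 103 CPM in KO and 166 and 146 in WT, a log2 fold change of -0.56 (SE 0.23, edgeR adjusted p = 0.549). Nid1 had 25.4 and 24.2 in KO and 34.0 and 27.0 in WT (-0.31, SE 0.29). Fbn1 had 38.8 and 41.6 against 56.9 and 56.9 (-0.50, SE 0.25), Col8a1 (a short-chain collagen of vessels) 7.63 and 12.7 against 17.6 and 17.5 (-0.75, SE 0.37), and Lox 11.4 and 10.3 against 15.5 and 13.3 (-0.42, SE 0.36). In each of these genes both KO libraries lay below both WT libraries.

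**Figure D2:**
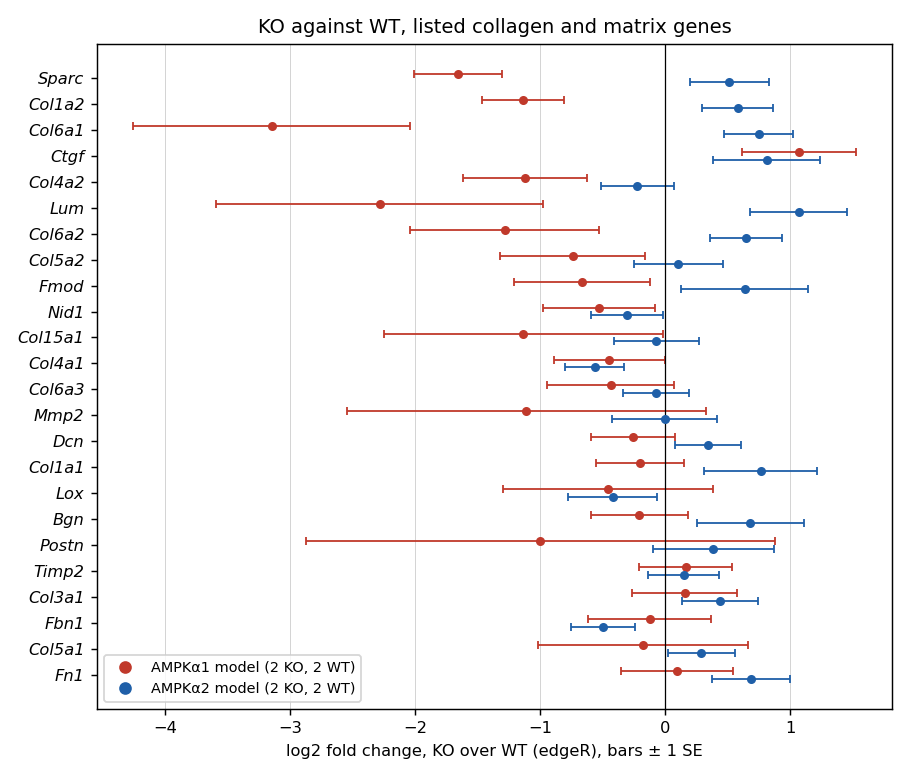
Log2 fold change of KO against WT (edgeR, TMM scale) of the 24 listed genes, 1 point per model, with bars of 1 SE. Sparc stands at -1.66 in the AMPKα1 and 0.51 in the AMPKα2 model, and the bars of the AMPKα1 points are the wider ones in most genes.

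Whether the KO effect itself differed between the models was tested with the interaction term of a fit to the 8 libraries. None of the 50 genes passed edgeR's test, where 0.065% of 15378 genes did, and the smallest adjusted p was 0.331. At an unadjusted p under 0.05 stood 8 of 50, all with the lower effect in AMPKα1, where 6.98% of all genes did in either direction and 4.75% in this one. Sparc had a difference of the log2 fold changes (AMPKα1 minus AMPKα2) of -2.15 (SE 0.51, edgeR adjusted p = 0.331). Col1a2 had -1.70 (SE 0.45, adjusted p = 0.382) and Lum -3.31 (SE 0.88, adjusted p = 0.382) in the same edgeR fit. Col6a2 followed with -1.90 (SE 0.55) and Col6a1 with -3.88 (SE 1.12). Col20a1, Col4a4 and Col7a1, the other 3, had few reads or none in AMPKα1 KO.

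DESeq2 called 3 of these differences, Sparc (adjusted p = 0.0209), Col1a2 (0.0506) and Col6a1 (0.0523). Of all 15378 genes it called 41 with a higher and 139 with a lower effect in AMPKα1. Without AMPKα1 KO 2, edgeR called Col5a3, Col6a1, Lum and Postn, and without AMPKα1 KO 1 it called Col6a6. Col1a2, Col6a1, Col6a2 and Lum were lower in both KO libraries of the AMPKα1 model and higher in both KO libraries of the AMPKα2 model. Of all genes tested, 18.9% lay below WT without overlap in AMPKα1 and 18.8% above in AMPKα2. The share of all genes with both was not counted. For the models the genotype effect cannot be told apart from age, strain or the set in which the libraries were made.

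At the level of single sites, 0 of the 170 sites of these genes tested in the AMPKα1 model passed edgeR's test, where 0.00454% of all 44024 sites did, and 10 stood at an unadjusted p under 0.05, all lower in KO (3.07% of all sites did, and 2.38% as lower). The proximal site of Sparc, in its last exon, had 1031 and 1587 reads in AMPKα1 KO, against 2415 and 4614 in WT, a log2 fold change of -1.98 (SE 0.42, edgeR adjusted p = 0.410). It was called by DESeq2 (adjusted p = 0.0683), and by edgeR on library totals (0.0904), with all 8 libraries in the fit (0.00960), with only sites on the strand of the gene (0.0106) and without AMPKα1 WT 2 (0.0237). The distal site of Sparc had 769 and 880 reads in KO, against 1071 and 1814 in WT (-1.39).

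Both sites of Col1a2 were also among the 10, at -1.24 and -1.26. For Col1a1 the proximal site was, with 4254 and 5656 reads in KO, against 4343 and 11306 in WT (-1.14, SE 0.36, edgeR adjusted p = 0.543). The distal site of Col1a1 was not, with 20700 and 20756 reads in KO, against 6999 and 24395 in WT (-0.01, SE 0.33). The site of Col6a1 in the last exon had 8 and 34 reads in KO, against 162 and 111 in WT (-3.50, SE 1.03).

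In the AMPKα2 model 0 of 211 sites passed, where 0.056% of all 23218 sites did, and 10 stood at an unadjusted p under 0.05, 5 higher and 5 lower, where 7.6% of all sites did. The lowest p was that of the last-exon site of Col5a3, with 4 and 8 reads in KO, against 46 and 18 in WT (-2.05, edgeR adjusted p = 0.547). DESeq2 called none of these sites. The distal site of Col4a1 had 12 and 30 reads in KO, against 85 and 49 in WT (-1.40). The intronic site of Col6a6 had 294 and 240 reads in KO, against 122 and 153 in WT (1.24, SE 0.46, edgeR adjusted p = 0.629).

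Usage of sites within a gene was tested apart from the level of the gene, with edgeR's exon usage test. In AMPKα1, 0 of 37 genes passed, where 0.0262% of all 7645 genes did, and Col4a5, Fbn1, Fn1 and Col5a2 stood at an unadjusted p under 0.05, where 10.8% of all genes did. In AMPKα2, 0 of 27 passed, where 0.104% of all 3838 genes did, and 0 stood at an unadjusted p under 0.05, where 7.5% of all genes did. No usage test was run with DESeq2.

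Where along the gene the reads lay differed between the models. In the AMPKα1 libraries nearly all reads of the collagen and matrix genes marked the last exon or the 2 kb downstream of it. Their share was 98.1% ± 0.520 (SD, n = 4) there and 74.1% ± 2.28 (n = 4) in the AMPKα2 libraries. The fall was larger in the other protein coding genes, from 82.5% ± 3.27 (SD, n = 4) to 39.8% ± 5.38 (n = 4), so it was not particular to this set. Internal exons held 0.0206% and 0.174% of the reads of the collagen and matrix genes in AMPKα1 KO and 0.189% and 0.0309% in AMPKα1 WT. They held 16.4% and 12.6% in KO and 14.9% and 13.5% in WT of the AMPKα2 model. Every AMPKα2 library lay above every AMPKα1 library, and KO and WT overlapped within each model. An exact two-sided permutation test over 4 against 4 libraries gave p = 0.0286, the smallest that this design can give. No conclusion is drawn from that p, because 71 of the 83 internal exon sites met the minimum of 16 reads through the AMPKα2 libraries alone. The Wilson intervals of these shares are at most 1.45 points wide. Other protein coding genes moved the same way but from a higher base, with 4.14% ± 0.597 of their reads in internal exons in AMPKα1 and 12.7% ± 2.18 in AMPKα2. Without Col1a1 the shares of the collagen and matrix genes were 0.185% and 13.6%.

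**Figure D3:**
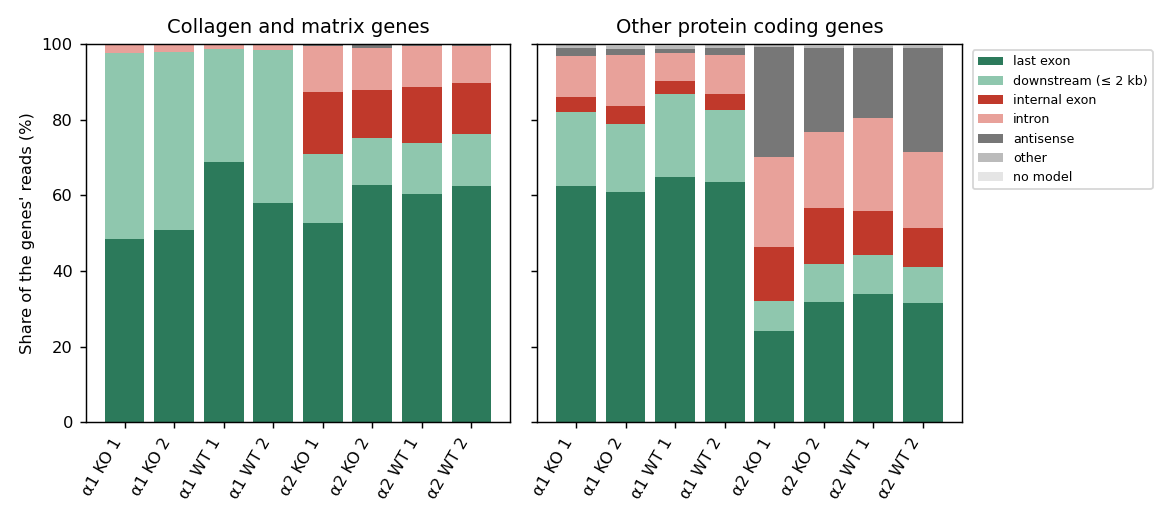
Share of reads (%) by place in the gene for each of the 8 libraries, for the collagen and matrix genes and for the other protein coding genes, as stacked bars from 0. The internal exon part of the collagen and matrix genes is between 12.6% and 16.4% in AMPKα2 libraries and at most 0.189% in AMPKα1 libraries.

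The internal exon reads came from 83 sites in 19 genes, which had 183 reads in the AMPKα1 and 5690 in the AMPKα2 libraries. Of the 83, 80 had a read in every AMPKα2 library and 71 had none in any AMPKα1 library. A site needed at least 16 reads over the 8 libraries to be counted, so those 71 entered through the AMPKα2 libraries alone. Of the 3996 internal exon sites of all protein coding genes, 2041 likewise had no AMPKα1 read. Internal exons hold 25.5% of all sites of these genes and 8.80% of the sites of all protein coding genes. Collagens carried most of them: of the genes with at least 100 reads over the AMPKα2 libraries, 11 of 15 collagens and 2 of 11 other matrix genes had over 10% of their reads in internal exons, and 22.4% of all 3815 such genes did. In the AMPKα1 libraries 0 of 22 such collagens did, and 6.82% of all 8094 genes.

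The highest share in AMPKα2 was that of Col6a2, with 75.2% of its reads in internal exons. Col6a3 had 59.9%, Col3a1 42.7%, Col4a1 29.3%, Col5a3 28.7%, Fn1 27.9% and Fbn1 20.4%. Col1a1 had 17.8%, 1277 of 7163 reads, where 2 of 98462 reads did in AMPKα1. Col1a2 stood at 15.2%. These genes include the chains of fibrils, of the basement membrane and of collagen VI alike, and the listed genes Dcn, Sparc and Timp2 were not among those over 10%.

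**Figure D4:**
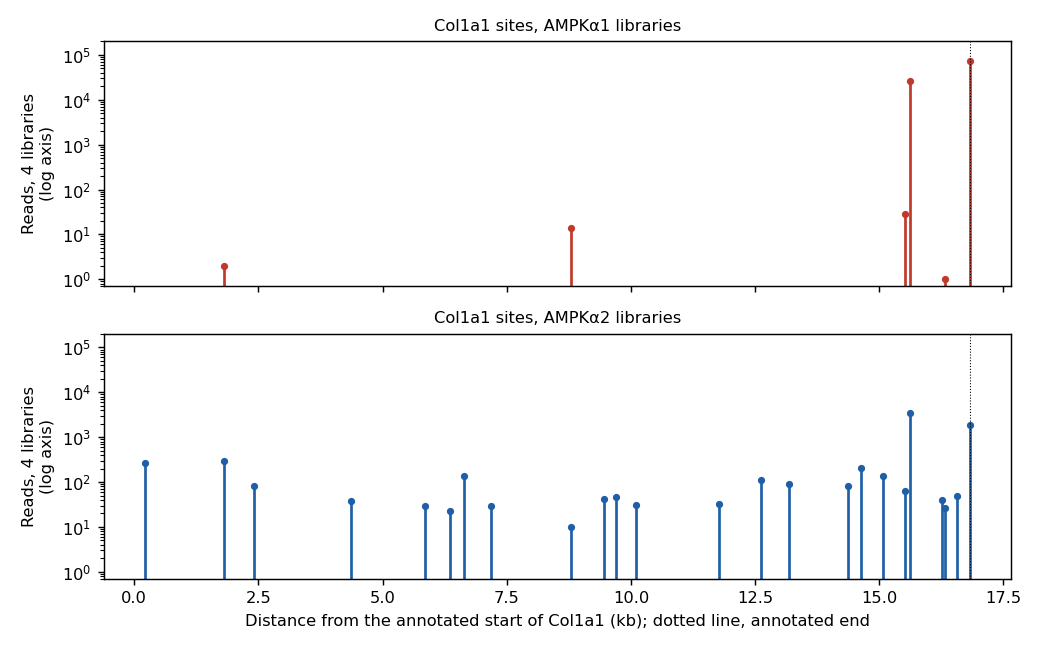
Reads (log axis) at each Col1a1 site against its distance from the gene start in kb, with 1 panel per model and reads summed over 4 libraries. The AMPKα2 panel shows sites along the whole gene, and the AMPKα1 panel has nearly all reads at the pair of sites at the 3′ end.

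Introns held much of what remained. Col6a6 had 98.9% of its AMPKα2 reads in introns, nearly all at 1 site 8.71 kb from the gene start (chromosome 9, 105819453, minus strand) that had 0 reads in every AMPKα1 library, while its site past the last exon had 36, 0, 10 and 53 reads in AMPKα1 KO 1, KO 2, WT 1 and WT 2. The AMPKα1 and AMPKα2 values of Col6a6 thus come from different sites. Col6a1 had 72.6% of its AMPKα2 reads in introns. Sites with at least 16 reads in the AMPKα2 and 0 in the AMPKα1 libraries made up 130 of the 325 sites, against 11.4% of the sites of all protein coding genes, and the reverse held for 27 (8.31%) against 10.4%. Sites of either kind met the minimum of 16 reads through 1 model alone.

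The bases around these sites differed with place. Within 40 bases before the site, AATAAA or ATTAAA (on the strand of the gene, overlaps not counted apart) was present at 44 of 80 last-exon sites of these genes (55.0%) and at 58.4% of those of all protein coding genes. At the internal exon sites it was present at 0 of 83, as in both windows printed above, and at 3.03% of those of all protein coding genes. A stretch rich in A (7 in a row or 8 of 10) within 30 bases after the site was found at 3 of 83 internal exon sites (3.61%) of these genes and at 17.2% of those of all protein coding genes. At last-exon sites the share was 23.6% in both sets, over the 55 and 9738 sites whose transcript ran on for 30 bases. These matches describe the letters in the windows only.

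For 11 of the genes the reads of the end of the gene came mainly from a pair of sites, and the share of the distal one was compared between the models. In Col1a1 the distal site is the one with AATAAA printed above. It took 83.0% and 78.6% of the reads of the pair in KO and 61.7% and 68.3% in WT of the AMPKα1 model, and 44.2% and 27.4% in KO and 36.9% and 29.6% in WT of the AMPKα2 model. All AMPKα1 libraries lay above all AMPKα2 libraries, at 72.9% ± 9.65 against 34.5% ± 7.62 (SD, n = 4; exact permutation p = 0.0286, adjusted p = 0.0524 over the 11 genes). In the AMPKα1 model both KO libraries lay above both WT libraries, for which an exact test of 2 against 2 cannot go below p = 0.333.

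Timp2 had 98.1%, 94.7%, 89.1% and 94.6% of the reads of its pair at the distal site in the AMPKα1 libraries and 23.2%, 39.2%, 37.0% and 30.4% in the AMPKα2 libraries, in the order KO 1, KO 2, WT 1, WT 2. This was the widest gap of the 11. Col1a2 had 34.0%, 61.3%, 47.1% and 52.2% against 26.0%, 16.3%, 22.4% and 23.0%, and Col4a1 averaged 77.4% against 39.5%. Sparc went the other way, with 28.2% to 42.7% in AMPKα1 against 45.7% to 67.3% in AMPKα2, and so did Col18a1 (the source of endostatin) with means of 14.2% and 60.8%. These 6 of the 11 genes, 4 higher and 2 lower in AMPKα1, separated the models without overlap, each at the smallest p of the exact permutation test, 0.0286, and an adjusted p of 0.0524. Over 881 protein coding genes with such a pair, 16.2% had all AMPKα1 libraries above all AMPKα2 libraries and 8.85% below. The Wilson intervals of a single library were from 0.933 to 5.53 points wide for Col1a1 and up to 44.0 points for Col18a1.

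**Figure D5:**
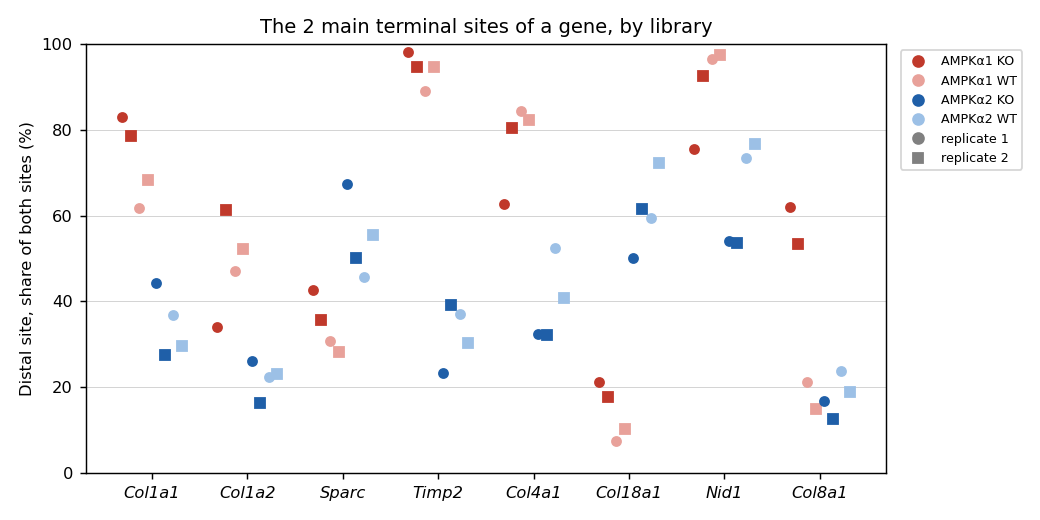
Share of reads (%) at the distal of the 2 main terminal sites, 1 point per library, for 8 genes in the 4 groups. Timp2 lies between 89.1% and 98.1% in AMPKα1 and between 23.2% and 39.2% in AMPKα2, and Sparc and Col18a1 lie higher in AMPKα2.

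Chains that share a protein were not read in fixed ratio. Collagen I holds 2 α1 chains for each α2 chain, and the ratio of Col1a1 to Col1a2 reads was 5.88 and 4.99 in KO and 1.99 and 3.75 in WT of the AMPKα1 model, and 1.59 and 1.02 in KO and 0.953 and 1.40 in WT of the AMPKα2 model. All AMPKα1 libraries lay above all AMPKα2 libraries, by 1.67 on the log2 scale (exact permutation p = 0.0286, adjusted p = 0.0476 over 5 ratios), and by 1.54 with only the reads at the end of the genes. Col6a3 to Col6a2 differed by 1.32 and Col5a1 to Col5a2 by -1.95, each with an adjusted p of 0.0476 in the same exact permutation test. These ratios sum all sites. Col5a1 had 82 of 319 reads antisense to the gene in AMPKα2 and 0 of 320 in AMPKα1. Col6a2 had 307 of 408 reads in internal exons in AMPKα2 and 0 of 290 in AMPKα1. Apart from that of collagen I, no ratio was compared at the ends of the genes alone. Col4a1 to Col4a2, whose genes lie head to head on chromosome 8, differed by -0.41 (exact permutation p = 0.457), and Col6a1 to Col6a2 by -0.51 (p = 0.686).

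Levels of whole genes between the models depend on the scale. With TMM factors in a fit of genotype and model, edgeR called 4 of the 50 genes higher in AMPKα1, where 6.68% of all genes were, and 12 lower, where 15.8% of all genes were. Ctgf (log2 fold change 2.01, SE 0.31, edgeR adjusted p = 0.00114), Col12a1 (2.49), Col1a1 (1.45) and Col8a1 (1.19) were the higher ones. The lower ones included all 4 collagen VI genes, from -1.33 for Col6a3 to -4.90 for Col6a6, and Fmod (-2.02), Lum (-2.87), Col5a1 (-2.10) and Col4a1 (-1.05). These levels sum all sites of a gene. The last exon held 1419 of 1597 Col6a3 reads in AMPKα1 and 148 of 921 in AMPKα2. For Col6a1 it held 364 of 425 and 79 of 508. The site of Col6a6 past the last exon held 99 of 131 and 9 of 818. Levels at the ends of the collagen VI genes alone were not tested between the models. By library totals the median over all genes moved from 0.00 to 1.76. On that scale 27 of the 50 genes were called higher and 1 (Col6a6) lower, where 6651 and 1279 of all 15378 genes were. The log2 fold changes of Col6a3, Col4a1 and Fn1 turned from negative to positive. Relative to the median of 1.76 Ctgf stood at 2.08 and Col1a1 at 1.58, both still above it. With the WT libraries alone 3 of 47 genes were called in each direction, where 269 of all 13040 genes tested were higher and 1274 lower.

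Of 84 genes on lists of other matrix genes, 78 were in the table, and edgeR called 0 between KO and WT in either model or for the interaction. In the interaction 2 of 78 (Ogn and Kera) had an unadjusted p under 0.05, as 6.98% of all genes did. In AMPKα1, 4 of 72 tested had an unadjusted p under 0.05, all lower in KO: Mfap2 (a microfibril protein), the proteoglycans Kera and Ogn, and P4hb (a subunit of prolyl 4-hydroxylase). Of all genes tested in AMPKα1, 4.21% did so in either direction and 2.84% as lower in KO. Ogn had 252 and 295 reads in AMPKα1 KO, against 286 and 634 in WT, and 113 and 107 in AMPKα2 KO and 95 and 59 in WT. Its log2 fold changes were -1.15 (SE 0.43) and 1.02 (SE 0.31), and the difference was -2.16 (SE 0.52, edgeR adjusted p = 0.338). In AMPKα2, 3 of 69 were higher (Ogn, Comp and Fbln1) and 3 lower (Timp1, Mfap2 and Mmp14) at an unadjusted p under 0.05, where 8.55% of all genes tested stood in either direction. Timp1, an inhibitor of metalloproteinases, had 9 and 8 reads in KO, against 43 and 29 in WT (-1.61, SE 0.45, edgeR adjusted p = 0.264). By list, the other proteoglycans had 0 of 6 positive in AMPKα1 (median -1.08) and 4 of 6 in AMPKα2 (median 0.12). Collagen-modifying enzymes and chaperones had 4 of 14 (-0.57) and 6 of 13 (-0.11), and laminins and other basement membrane genes 3 of 9 (-0.21) and 6 of 10 (0.05). Elastic fibre and tendon genes had 5 of 15 (-0.43) and 7 of 13 (0.14), proteases and inhibitors 4 of 8 (-0.01) and 2 of 9 (-0.26), and receptors and TGF-β signalling genes 11 of 20 (0.19) and 12 of 18 (0.20).

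Markers of 9 cell types that whole muscle can hold were compared in the same fits, and edgeR called 0 of them between KO and WT in either model. At an unadjusted p under 0.05 stood 1 higher and 3 lower of 42 in AMPKα1, and 3 higher and 1 lower of 41 in AMPKα2. Of all genes tested, 4.21% in AMPKα1 and 8.55% in AMPKα2 did so in either direction, and these lists were counted with edgeR only. Of the fibroblast markers, 0 of 8 did so in AMPKα1 and 1 of 8, higher in KO, in AMPKα2. Summed over 8 fibroblast markers, none of them at 0 in any library, CPM was 1680 and 536 in KO and 1695 and 1067 in WT of the AMPKα1 model, and 664 and 517 in KO and 442 and 466 in WT of the AMPKα2 model. The 4 tendon cell markers summed to 176 and 50.6, 324 and 127, 113 and 89.9, and 49.8 and 112 in the same order. The lower sums of AMPKα1 KO 2 stand beside its Sparc and Col1a2 values, which were close to those of AMPKα1 KO 1, and both sums lay above WT for fibroblast markers in AMPKα2 KO. The part of these cells in the differences above was not tested. The 5 fibre markers summed to 57613 and 44846 in KO and 106360 and 70268 in WT of the AMPKα1 model, lower without overlap, and 2 of the 5 stood at an unadjusted p under 0.05. Adipocyte markers (4 of 5 in the table) summed to 2156 in AMPKα1 KO 2 and 559 to 804 in the other AMPKα1 libraries.

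Some of the 50 genes rest on few or ambiguous reads. All reads of Col16a1 and Col28a1 lay on the strand opposite the gene. Col4a3bp, the pattern match that is no collagen, had 22.5 and 113 CPM in AMPKα1 KO and 79.7 and 49.6 in WT (log2 fold change 0.07, SE 0.81), and left-out libraries moved that value between -1.52 and 0.81. In AMPKα2 it had 15.3 and 11.9 in KO and 11.1 and 10.9 in WT (0.28, SE 0.36).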

How the data were processed

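Gastrocnemius RNA of 8 mice, 2 in each of 4 groups taken from the sample labels, was read by WTTS-seq. The authors sequenced the 3′ ends on an Ion PGM, filtered reads with FASTX Toolkit 0.0.13.1, removed leading Ts, kept reads of at least 16 bases and mapped them with TMAP 3.4.1 to GRCm38.p5. They merged read ends within 24 bases into APSs and assigned these to genes with Cuffcompare 2.2.1. The deposited table holds raw read counts per APS and library, with at least 16 reads over the 8 libraries. Its columns of per-sample values were all used.

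Counts were summed per gene over all its APSs. For each model, KO was tested against WT in edgeR 4.0.16 (limma 3.58.1, R 4.3.3) by a robust quasi-likelihood fit with TMM factors. Genes or sites needed 16 reads in the 4 libraries of the model to enter, and were called where the p-value after Benjamini-Hochberg adjustment over everything tested fell below 0.1, as in the study. The interaction and the model term were fitted to the 8 libraries. Site usage was tested with edgeR's diffSpliceDGE. DESeq2 1.42.0, the tool of the study, was an alternative, as were other scaling, filters, fits, strand rules, a replicate block and leaving out each library. Shares and ratios were compared between the models by exact two-sided permutation tests over all 70 regroupings of 4 against 4 libraries. Python 3.11.15 (numpy 2.4.6, pandas 2.3.3, scipy 1.17.1, matplotlib 3.10.9) served for the rest, and the count tests were tested on simulated data. Places in genes and bases near sites were read from GENCODE gene models and transcripts on GRCm38. Only sites in an annotated exon, or for the printed windows just past a transcript's end, give a sequence. Each printed window lies in 1 exon. The windows of the signal and A-stretch counts follow the spliced transcript and can cross exon junctions. Intervals are 95% Wilson intervals.

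The members and lists were chosen with earlier results of these data known. Named were the 24 listed genes, other collagens with at least 100 reads over the 8 libraries, the main site of each and others with at least 10% of its reads, and of the other lists the called genes and up to 3 with the lowest p. Sites outside this rule (in Col5a3 and Fn1) were named after their values were seen, as were the genes below an unadjusted p of 0.05 and those with a difference in internal exon share. Differences between the models cannot be told apart from age, strain or library set.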

Additional observations from a re-analysis of the deposited data

Results flagged for a closer look

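In 4 genes both KO libraries lay below both WT libraries in the AMPKα1 model and above them in the AMPKα2 model, and the difference of the KO effects (AMPKα1 minus AMPKα2, log2) was tested with edgeR's interaction term over 8 libraries. It was -1.70 for Col1a2 (adjusted p = 0.382), -3.88 for Col6a1 (adjusted p = 0.460), -1.90 for Col6a2 (edgeR adjusted p = 0.454) and -3.31 for Lum (edgeR adjusted p = 0.382). None passed that test. Of all genes tested, 18.9% lay below WT without overlap in AMPKα1 and 18.8% above in AMPKα2. The share of all genes with both was not counted, so the 4 genes have no background to be read against. Over the other tools and settings DESeq2 called Col1a2 and Col6a1, and edgeR without AMPKα1 KO 2 called Col6a1 and Lum. Col6a1 was read mostly in introns in the AMPKα2 libraries (72.6% of its reads) and Col6a2 mostly in internal exons (75.2%), so that the 2 effects of each of these genes rest partly on different sites. The part of this in the differences was not tested.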

How the results depend on the processing

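Between KO and WT no gene was called by edgeR, and that count moved to 1 with DESeq2 in AMPKα1 (Sparc) and to 2 in AMPKα2 when genes with 1 read or more were tested (Col6a6 and Lum). Over all genes the DESeq2 fit called 29 higher and 95 lower of 14635, and the other setting 260 higher and 137 lower of 14598. Among the AMPKα1 sites the count of 0 became 1 with DESeq2, with library totals or with only sites on the strand of the gene (the proximal Sparc site each time), and 10 with all 8 libraries in the fit, which pools their spread. Over all sites DESeq2 called 43 higher and 175 lower of 49369. Library totals gave 18 and 31 of 44024, sites on the strand of the gene 10 and 86 of 38454, and all 8 libraries 227 and 1337 of 44024. In AMPKα2 the count of sites became 1 (a site of few reads in an internal exon of Fn1, at 71606730 on chromosome 1) when sites with 1 read or more were tested and with a replicate block. Over all sites these settings called 425 higher and 132 lower of 50017, and 369 higher and 151 lower of 23218. The interaction count became 3 with DESeq2, where 41 of all 15378 genes were called higher and 139 lower. Levels between the models moved from 4 higher and 12 lower to 27 and 1 by library totals, and 3 were lower with the WT libraries alone. Over all 15378 genes the counts moved from 1028 higher and 2425 lower to 6651 and 1279 by library totals. With the WT libraries alone 1274 of 13040 genes were lower. Leaving out 1 library at a time gave 0 to 1 called sites in AMPKα1 (1 without AMPKα1 WT 2) and 0 to 4 called interactions (4 without AMPKα1 KO 2).

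KO and WT mice share replicate numbers but are different mice, and deviations of same-numbered libraries from their group means correlated at 0.03 in AMPKα1 and -0.0041 in AMPKα2, so the numbers were not taken as pairs. With the replicate block the count lower in AMPKα1 between the models became 11, where 2341 of all 15378 genes were lower. The count of AMPKα2 sites became 1 (the Fn1 site above). No other count of calls of these genes changed, and Col4a3bp turned to -0.30 in AMPKα1.

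None of the genes below was called between KO and WT in these settings, and the cause of each change of sign was not tested. By library totals the log2 fold changes in AMPKα1 of Bgn (0.018), Col11a1 (0.17), Col12a1 (0.16), Col1a1 (0.0075), Col5a1 (0.16), Col6a6 (0.0058), Dcn (0.0062) and Fbn1 (0.19) turned positive, and in AMPKα2 those of Col5a2 (-0.045) and Timp2 (-0.067) turned negative. Col11a1 was at 0.014 with DESeq2 and 0.0082 with RLE factors. In AMPKα2 Mmp2 was at 0.0064 with RLE factors, 0.024 with all 8 libraries and 0.015 with sites on the strand of the gene, where Postn was at -0.37. Between the models, Col6a3 (0.48), Col4a1 (0.75) and Fn1 (1.00), called lower on the TMM scale, turned positive by library totals, where Col4a1 and Fn1 were called higher.

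With 1 AMPKα1 library left out, values ran from -0.38 to 0.026 for Bgn, -1.14 to 0.99 for Col11a1, -0.30 to 0.061 for Col12a1, -1.28 to 0.26 for Col18a1, -0.52 to 0.25 for Col1a1, -0.59 to 1.89 for Col23a1, -0.021 to 2.11 for Col24a1, -0.21 to 0.68 for Col3a1, -1.52 to 0.81 for Col4a3bp, -0.94 to 0.49 for Col5a1, -7.96 to 0.87 for Col6a6, -0.94 to 1.27 for Col9a1, -0.62 to 0.28 for Fbn1, -1.18 to 0.21 for Fmod, -0.25 to 0.58 for Fn1 and -0.92 to 0.27 for Lox. With 1 AMPKα2 library left out they ran from -0.17 to 1.23 for Bgn, -0.36 to 0.20 for Col15a1, -0.59 to 0.28 for Col22a1, -0.061 to 0.81 for Col3a1, -0.65 to 0.12 for Col4a2, -0.14 to 0.29 for Col5a2, -0.39 to 0.18 for Col6a3, -0.041 to 1.23 for Col7a1, -0.10 to 0.072 for Mmp2, -0.41 to 0.81 for Postn, -0.031 to 0.91 for Sparc and -0.12 to 0.44 for Timp2. A lone library in an arm is then assumed to vary like the others.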

Other observations

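Between the models, 12 of the 78 other matrix genes were called higher in AMPKα1 and 7 lower on the TMM scale. Of all genes tested, 6.68% were called higher and 15.8% lower. Calls of these 78 genes were counted on the TMM scale only. Serpinh1, the collagen chaperone HSP47, led them with 3417 and 2249 reads in AMPKα1 KO, 1078 and 3605 in AMPKα1 WT, and between 32 and 70 in the 4 AMPKα2 libraries, a log2 fold change of 3.43 (SE 0.30). Timp3, an inhibitor of metalloproteinases held in the matrix, had 1130 to 5703 reads in AMPKα1 and 161 to 296 in AMPKα2 libraries (1.82, SE 0.28). Among the laminins, Lama2, the chain of the muscle fibre basement membrane, was higher (1.12, SE 0.26) and Lamb2, a chain of the neuromuscular junction, was lower (-2.96, SE 0.39), and the enzyme Mmp3 had 0 reads in every AMPKα1 library and 9 to 38 in each AMPKα2 library. These values carry the same confounding of model with age, strain and library set.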
